A study of Mus musculus with 9 samples.

Results

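CC chemokine ligands are small secreted proteins that attract leukocytes, and 10 of their genes were examined here: Ccl2, Ccl3, Ccl4, Ccl5, Ccl6, Ccl7, Ccl8, Ccl9, Ccl12 and Ccl24. They were taken by name from the 22136 genes with values, with no threshold on any measured value. Earlier results of these data were known when they were chosen. All 10 passed the filter on low counts and were tested among 13178 genes.

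The RNA came from immune cells, sorted as CD45+ from skin tumours that the mouse melanoma line YUMM 2.1 had formed in immunocompetent C57BL/6J mice. One group of mice was given an isotype control IgG. Another was given anti-B7-H3, which binds a B7 family protein on the cell surface, and the last was given anti-PD1, which binds a receptor that restrains T cells. Treatment started at tumour volumes of 20 to 50 mm3, and each group holds 3 bulk RNA-seq libraries. All groups share the tumour line, the strain and the sort, and the labels name no engineered allele, age, dose or sampling time. Whether replicates come from separate animals is not stated there, and p-values then measure only the spread between these samples, which may be technical.

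CC chemokines bind G protein-coupled receptors on leukocytes and guide their movement, and most ligands share a receptor with other ligands. Ccl2, Ccl7 and Ccl12 attract monocytes through CCR2. Ccl3 and Ccl4 attract T cells, NK cells and myeloid cells, as does Ccl5, and Ccl3 and Ccl5 bind CCR1. Ccl6 and Ccl9 are CCR1 ligands made largely by myeloid cells, mouse Ccl8 is a ligand of CCR8, and Ccl24 (eotaxin-2) attracts eosinophils through CCR3. In tumours, macrophages, monocytes, T cells and NK cells are known sources of these ligands. A CD45+ sort is meant to leave out RNA of tumour and stromal cells.

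Libraries held 14487012 to 31533106 estimated counts, and 3 counts were worth 0.0951 to 0.207 CPM, depending on the library (CPM are counts scaled to a common library total with edgeR's TMM factors). Ptprc, which encodes CD45, lay between 1719 and 2913 CPM in every library, 9 T cell markers summed to 3773 to 7034 CPM and 7 melanoma markers to 0.376 to 14.1 CPM. IgG library 2 stood apart, at 192 on a first principal component where the other 8 lay between -54.9 and 31.1, and had 1896 tested genes at 0. Anti-PD1 library 3 lay at -149 on the next component, with 1248 tested genes at 0, against 822 in IgG library 3 and 224 to 308 in the other 6.

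The ligand genes lie in 3 places of the mouse genome (GRCm38). Ccl8 and the monocyte attractants form 1 cluster on chromosome 11, in the order Ccl2 (chr11:82035571-82037453), Ccl7 (chr11:82045712-82047525), Ccl12 (chr11:82101845-82103400) and Ccl8 (chr11:82115185-82116799), all on the + strand. A gap of 1409 kb separates it from the cluster of Ccl5 (chr11:83525778-83530518), Ccl9 (chr11:83572919-83578636), Ccl6 (chr11:83587882-83593087) and Ccl3 (chr11:83647844-83649355), all on the - strand, and Ccl4 (chr11:83662584-83664683) on the + strand. Ccl24 lies apart on chromosome 5 (chr5:135569937-135573049, - strand). Each of the 10 is protein-coding and has 1 transcript in the deposited tables. The annotated gene Gm17268 overlaps Ccl2 on the other strand, and the libraries do not mark strand, but no reads were assigned to Gm17268 in any library. Of 16 other protein-coding genes that start within 100 kb of a ligand gene, 9 were tested. Their changes ran from -0.38 to 1.67 (log2) with anti-B7-H3 and from -2.75 to 1.41 with anti-PD1, and edgeR's adjusted p was at least 0.152 and 0.168.

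RefSeq (GRCm38.p6) promoter windows were at hand for 5 of the 10 genes, Ccl3, Ccl6, Ccl8, Ccl9 and Ccl12. Ccl2, Ccl4, Ccl5, Ccl7 and Ccl24 had no entry. The 250 bases before the annotated start are shown for Ccl9, Ccl6 and Ccl3, since these ligands passed the test with both antibodies. The windows are chr11:83578637-83578886 for Ccl9, chr11:83593088-83593337 for Ccl6 and chr11:83649379-83649628 for Ccl3, each read 5′ to 3′ on the - strand. Capitals mark every match to a motif of factors known to act on inflammatory genes or to the TATA box.
Ccl9: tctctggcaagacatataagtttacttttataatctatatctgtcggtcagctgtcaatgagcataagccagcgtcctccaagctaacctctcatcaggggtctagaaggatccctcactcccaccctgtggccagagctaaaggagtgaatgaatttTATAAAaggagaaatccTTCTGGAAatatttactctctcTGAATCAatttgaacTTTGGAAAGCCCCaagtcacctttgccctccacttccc
Ccl6: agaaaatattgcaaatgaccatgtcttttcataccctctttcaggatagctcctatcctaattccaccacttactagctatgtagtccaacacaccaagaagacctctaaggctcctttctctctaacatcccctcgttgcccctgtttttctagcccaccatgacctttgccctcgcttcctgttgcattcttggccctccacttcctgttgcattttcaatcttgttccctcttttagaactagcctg
Ccl3: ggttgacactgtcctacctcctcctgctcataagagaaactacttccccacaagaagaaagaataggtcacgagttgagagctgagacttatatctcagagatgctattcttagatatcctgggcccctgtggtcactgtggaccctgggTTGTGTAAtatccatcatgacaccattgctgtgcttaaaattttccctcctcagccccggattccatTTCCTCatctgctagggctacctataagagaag
The motifs searched were kappaB by its name, AP-1 (TGANTCA), C/EBP (TTNNGNAA), STAT (TTCNNNGAA) and PU.1 (GAGGAA) on both strands, and TATAAA on the gene's strand. Counted back from the start, the Ccl9 window has TATAAA at -92 to -87, C/EBP matches at -75 to -68 and -38 to -31, an AP-1 match at -53 to -47 and a kappaB match at -35 to -26 that overlaps the nearer C/EBP match. The Ccl3 window has a C/EBP match at -100 to -93 and a PU.1 match at -33 to -28 on the other strand. The Ccl6 window holds none of these letter strings. Among 32817 promoter windows of this length, 7.25% hold the kappaB motif (1 of the 5 ligand windows), 6.75% AP-1 (1 of 5), 36.8% C/EBP (2 of 5), 7.01% STAT (0 of 5), 23.3% PU.1 (3 of 5) and 7.60% TATAAA (3 of 5). A match describes the letters only, and no binding was measured.

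Most of the ligand genes were higher in the immune cells of antibody-treated mice than in those of IgG-treated mice, and Ccl5 was the exception. With anti-B7-H3, 4 of the 10 rose (Ccl3, Ccl6, Ccl9 and Ccl24), where 0.827% of all tested genes did (edgeR's quasi-likelihood test, adjusted p under 0.05). With anti-PD1, 5 rose (the same 4 and Ccl4), where 1.72% of all tested genes did. Genes called lower made up 0.0228% and 0.0152% of those tested. Ccl5, far from the threshold, was the only ligand with a negative change in either comparison. Of all tested genes, 52.06% and 47.25% had a positive change. All 3 antibody libraries lay above all 3 IgG libraries for 8 ligands with anti-B7-H3 (9.96% of tested genes) and for 9 with anti-PD1 (9.99%). The median change of the 10 was 1.75 and 2.41 on the log2 scale, beside 0.02 and -0.04 over all tested genes. The list was chosen with earlier results of these data known, so these counts and medians describe it and do not test it. Both comparisons use the same 3 IgG libraries, so their values are given side by side and are not independent of each other.

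**Figure D1:**
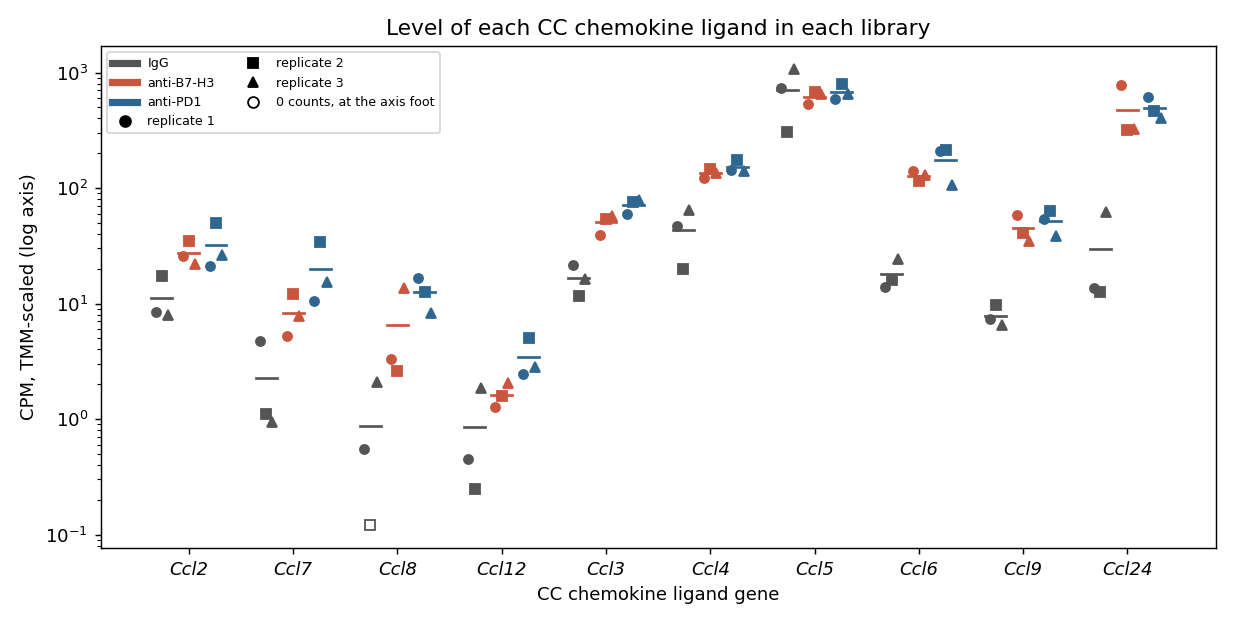
Level of each ligand gene in each library, in CPM on a log axis, by group (colour) and replicate number (shape), with the group mean as a bar and the library at 0 counts drawn open at the foot. Ccl5 is the gene whose groups share their range in both IgG comparisons, while the antibody libraries of Ccl6, Ccl9 and Ccl24 lie above all IgG libraries.

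The CCR1 ligands Ccl6 and Ccl9 gave the smallest p-values of the 10 in both IgG comparisons. Ccl6 stood at 13.9, 15.9 and 24.3 CPM in the IgG libraries, at 141, 114 and 130 CPM with anti-B7-H3 and at 207, 215 and 107 CPM with anti-PD1. All 6 antibody libraries lay above the highest IgG library, and anti-PD1 library 3 was the lowest of the 6. The rise was 2.83 ± 0.31 (log2 ± SE; 7.10-fold, edgeR adjusted p = 0.00261, n = 3 per group) with anti-B7-H3 and 3.29 ± 0.32 (9.76-fold, edgeR adjusted p = 0.000645) with anti-PD1. Ccl9 stood at 7.32, 9.78 and 6.49 CPM with IgG, at 58.8, 40.4 and 34.7 CPM with anti-B7-H3 and at 53.7, 62.9 and 38.2 CPM with anti-PD1. The lowest antibody library was again well above the highest IgG library, and the antibody groups shared their range. Its rise was 2.50 ± 0.32 (5.67-fold, edgeR adjusted p = 0.00463) and 2.72 ± 0.32 (6.57-fold, edgeR adjusted p = 0.00191). Both genes kept their call under all 19 other settings tried, including the omission of each library in turn.

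The MIP-1 genes Ccl3 and Ccl4, which encode attractants of T cells and myeloid cells and lie 13.2 kb apart, rose by a smaller factor. Ccl3 stood at 21.6, 11.6 and 16.3 CPM with IgG, at 39.3, 54.0 and 57.7 CPM with anti-B7-H3 and at 59.2, 75.2 and 78.4 CPM with anti-PD1. The 3 groups did not overlap, with IgG lowest and anti-PD1 highest. Its rise was 1.61 ± 0.28 (3.05-fold, edgeR adjusted p = 0.0236) with anti-B7-H3 and 2.11 ± 0.28 (4.30-fold, edgeR adjusted p = 0.00399) with anti-PD1. Ccl4 stood at 47.2, 19.8 and 64.0 CPM with IgG, at 123, 145 and 135 CPM with anti-B7-H3 and at 144, 174 and 140 CPM with anti-PD1. IgG library 2 was the lowest, and all 6 antibody libraries lay above the IgG libraries. With anti-PD1 Ccl4 rose by 1.81 ± 0.35 (3.50-fold, edgeR adjusted p = 0.0265). The anti-B7-H3 difference of 1.62 ± 0.34 did not pass (edgeR adjusted p = 0.0678), while DESeq2 called it (adjusted p = 0.000752).

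The calls of Ccl3 with anti-B7-H3 and of Ccl4 with anti-PD1 depended on single libraries. Ccl3 lost its call without IgG library 3, anti-B7-H3 library 2 or 3, or anti-PD1 library 2 (edgeR adjusted p = 0.0697, 0.104, 0.106 and 0.0564), and kept it in every such fit with anti-PD1 (edgeR adjusted p of at most 0.0199). Ccl4 lost its anti-PD1 call without IgG library 1 or without any 1 of the anti-PD1 libraries (edgeR adjusted p = 0.062, 0.0748, 0.0995 and 0.0658). With anti-B7-H3 it passed without IgG library 2 or IgG library 3 (edgeR adjusted p = 0.0182 and 0.0324), and without the low count filter (0.021). The anti-B7-H3 call of Ccl3 and the anti-PD1 call of Ccl4 were also lost with only the 6 libraries compared or a replicate block.

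Ccl5, a product of activated T cells and NK cells, showed no such rise. It was the first of the 10 ligands in every library by TPM (a level per effective length, which is shorter than the transcript). It stood at 736, 307 and 1078 CPM with IgG, at 532, 672 and 652 CPM with anti-B7-H3 and at 591, 791 and 653 CPM with anti-PD1. The IgG libraries held both the lowest and the highest value, and the antibody libraries lay between them. The difference was -0.19 ± 0.36 (95% interval -0.98 to 0.60, edgeR adjusted p = 0.939) and -0.06 ± 0.36 (95% interval -0.85 to 0.73, edgeR adjusted p = 0.975). Its sign turned without IgG library 3 (0.24 and 0.38), so no direction is given for it. The summed level of 9 T cell markers ran from 4849 to 7034 CPM with IgG, from 3773 to 5572 CPM with anti-B7-H3 and from 4112 to 5486 CPM with anti-PD1. The 6 NK cell markers summed to 218 to 819, 800 to 1279 and 627 to 949 CPM. None of these markers was at 0 in any library or passed edgeR's test, 3 T cell and 4 NK cell markers had an unadjusted p under 0.05 with anti-B7-H3 and 0 under anti-PD1, and DESeq2 called 0. Their part in the Ccl5 level was not tested.

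Ccl24, the eosinophil attractant, had the largest fitted change of the 10. It stood at 13.5, 12.7 and 62.6 CPM with IgG, at 774, 315 and 324 CPM with anti-B7-H3 and at 608, 467 and 402 CPM with anti-PD1. IgG library 3 lay well above the other IgG libraries, and anti-B7-H3 library 1 was the highest of all 9. The antibody libraries all lay above the IgG libraries, and the antibody groups overlapped. The rise was 3.99 ± 0.71 (15.9-fold, edgeR adjusted p = 0.0436) with anti-B7-H3 and 4.05 ± 0.71 (16.6-fold, edgeR adjusted p = 0.0271) with anti-PD1, with 95% intervals of 2.38 to 5.60 and 2.44 to 5.67. IgG library 3 set the size, since without it the changes were 5.16 and 5.23. The anti-B7-H3 call was lost without any 1 of the other 8 libraries (edgeR adjusted p = 0.0845 to 0.108). The anti-PD1 call was lost without IgG library 1 or 2, anti-B7-H3 library 3, or any 1 of the anti-PD1 libraries (edgeR adjusted p = 0.0509 to 0.0972). Both calls were also lost without the low count filter (edgeR adjusted p = 0.187 with anti-B7-H3) and with a block for the replicate number. With upper-quartile scaling or only the 6 libraries compared, the anti-B7-H3 call was lost too.

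Markers of the cells that Ccl24 attracts were low. The 6 eosinophil markers summed to 13.3 to 30.9 CPM with IgG, 37.4 to 65.7 CPM with anti-B7-H3 and 64.7 to 77.6 CPM with anti-PD1. By group mean, Ear2 alone held 7.35 of 20.6 CPM (IgG), 41.5 of 50.6 CPM (anti-B7-H3) and 44.5 of 69.6 CPM (anti-PD1). The sums alone therefore do not show whether a rise was shared by the markers. Among the 5 tested, 2 had a positive change under anti-B7-H3 (median log2 change -0.54). All 5 were positive under anti-PD1 (median 1.11). Epx, which encodes eosinophil peroxidase, was at 0 counts in IgG library 2, anti-B7-H3 library 2 and all 3 anti-PD1 libraries, and Il5ra, Siglecf and Prg2 were each at 0 in at least 1 IgG library. Of the 5 eosinophil markers tested, Ear2 alone passed edgeR's test, with anti-PD1. DESeq2 called Ear2 higher with each antibody and Siglecf higher with anti-PD1. Ccr3, the gene of the Ccl24 receptor, stood at 10.2 ± 5.47 CPM with IgG, 6.51 ± 4.43 with anti-B7-H3 and 16.6 ± 8.46 under anti-PD1 (mean ± SD, n = 3; edgeR adjusted p = 0.877 and 0.779). The part of eosinophils in the Ccl24 change was not tested.

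The genes of the first cluster, Ccl2, Ccl7, Ccl8 and Ccl12, had higher means with both antibodies, but edgeR called none of the 4 in either IgG comparison, while Ccl2, Ccl7 and Ccl8 had an unadjusted p under 0.05 in both. DESeq2 called Ccl2, Ccl7 and Ccl8 higher with anti-PD1 and none of the 3 with anti-B7-H3, and did not call Ccl12 in either comparison (DESeq2 adjusted p of at least 0.166). Ccl2 stood at 8.52, 17.2 and 7.99 CPM with IgG, at 25.9, 34.8 and 22.0 CPM with anti-B7-H3 and at 21.1, 49.4 and 26.1 CPM with anti-PD1. The antibody libraries all lay above the IgG libraries, the nearest by a small margin to IgG library 2. The differences were 1.29 ± 0.42 (95% interval 0.37 to 2.22, edgeR adjusted p = 0.345) and 1.52 ± 0.42 (0.59 to 2.45, edgeR adjusted p = 0.132). Without IgG library 2 the anti-PD1 difference of Ccl2 passed (edgeR adjusted p = 0.041).

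Ccl7 stood at 4.76, 1.11 and 0.934 CPM with IgG, at 5.19, 12.1 and 7.80 CPM with anti-B7-H3 and at 10.5, 33.8 and 15.3 CPM with anti-PD1. Library 2 was the highest of each antibody group, and IgG library 1 reached almost to the lowest anti-B7-H3 library. The differences were 1.88 ± 0.71 (edgeR adjusted p = 0.454) and 3.12 ± 0.74 (edgeR adjusted p = 0.0683), and the second passed without IgG library 1 (edgeR adjusted p = 0.0235). Ccl8 stood at 0.551, 0 and 2.08 CPM with IgG, from 0 to 40 counts, at 3.34, 2.63 and 13.7 CPM with anti-B7-H3 and at 16.8, 12.6 and 8.35 CPM with anti-PD1. The IgG libraries were the lowest 3, and 1 anti-B7-H3 library lay among the anti-PD1 values. Its differences of 2.89 ± 1.16 and 3.83 ± 1.20 had edgeR adjusted p = 0.499 and 0.207. Ccl12, with 4 to 136 counts per library, stood at 0.451, 0.248 and 1.87 CPM with IgG, at 1.26, 1.58 and 2.03 CPM with anti-B7-H3 and at 2.44, 5.03 and 2.84 CPM with anti-PD1. IgG library 3 lay within the anti-B7-H3 range, and the differences of Ccl12 did not pass (edgeR adjusted p = 0.898 and 0.563). The 6 fibroblast markers, of cells that also make Ccl2 and Ccl7 and should be absent from a CD45+ sort, summed to 0.495 to 1.45 CPM with IgG, 8.42 to 14.2 with anti-B7-H3 and 13.3 to 29.7 under anti-PD1. Between 1 and 5 of them, most often Dcn, were at 0 in each library, and their part in these differences was not tested.

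**Figure D2:**
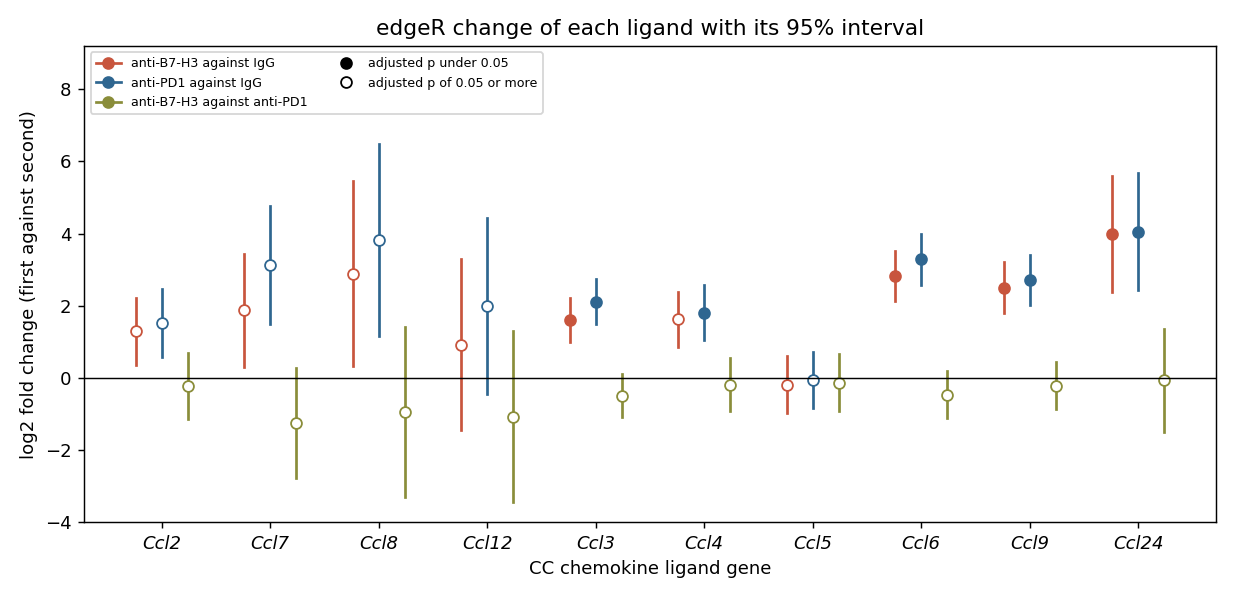
Change of each ligand gene in each comparison, as log2 fold change from edgeR with its 95% interval, filled where the adjusted p is under 0.05. The filled points are Ccl3, Ccl6, Ccl9 and Ccl24 against IgG with both antibodies and Ccl4 with anti-PD1, and each interval of anti-B7-H3 against anti-PD1 includes 0.

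Anti-B7-H3 and anti-PD1 libraries were compared directly to ask whether the ligands differed between the antibodies. All 10 differences were negative, that is lower with anti-B7-H3, with a median of -0.34 (0.04 over all tested genes). Of all tested genes, 53.76% had a positive difference. The sign of Ccl2 turned without anti-PD1 library 2, and that of Ccl24 without anti-B7-H3 library 2 or 3 or anti-PD1 library 1. None of the 10 passed edgeR's test (adjusted p = 1 for each), 0 had an unadjusted p under 0.05 and DESeq2 called 0 of them, and edgeR called 0% of all tested genes. Ccl3 and Ccl12 were the 2 ligands with every anti-B7-H3 library below every anti-PD1 library, a pattern met by 6.4% of tested genes. The 95% intervals were narrowest for Ccl3 (-1.09 to 0.10), Ccl6 (-1.11 to 0.19) and Ccl9 (-0.86 to 0.44). They were wide for Ccl7 (-2.77 to 0.28), Ccl8 (-3.31 to 1.42), Ccl12 (-3.44 to 1.29) and Ccl24 (-1.49 to 1.36). Ccl2 (-1.13 to 0.69), Ccl4 (-0.93 to 0.55) and Ccl5 (-0.92 to 0.66) lay between, so no ligand is shown to act alike or differently under the antibodies.

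Set side by side within each library in TPM, the make-up of the ligand RNA differed between IgG and antibody libraries. These deposited values divide counts by the effective length of a transcript, not by its full length. Ccl5 held 88.3%, 83.2% and 88.3% of the summed TPM of the 10 ligands with IgG, 40.4%, 56.5% and 55.5% with anti-B7-H3 and 43.3%, 50.5% and 52.7% with anti-PD1. Ccl24 held 0.99%, 2.06% and 3.11% with IgG, 36.5%, 16.3% and 17.0% with anti-B7-H3 and 27.5%, 18.4% and 19.9% with anti-PD1. In both cases the IgG libraries did not overlap with the others. By CPM, Ccl24 lay above Ccl5 in anti-B7-H3 library 1 (774 against 532) and in anti-PD1 library 1 (608 against 591). The mean share of Ccl4 was 5.31% with IgG and 10.8% with each antibody, that of Ccl6 1.68%, 6.74% and 8.05%, that of Ccl3 2.30%, 4.06% and 5.05% and that of Ccl9 0.779%, 2.13% and 2.17%. Shares add to a whole, so a lower share of 1 ligand goes with higher shares of others, and the Ccl5 level in CPM did not pass the test. Without Ccl5, the other 9 ligands summed to 118, 88.3 and 187 CPM with IgG, 1171, 720 and 726 CPM with anti-B7-H3 and 1123, 1095 and 818 CPM with anti-PD1.

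**Figure D3:**
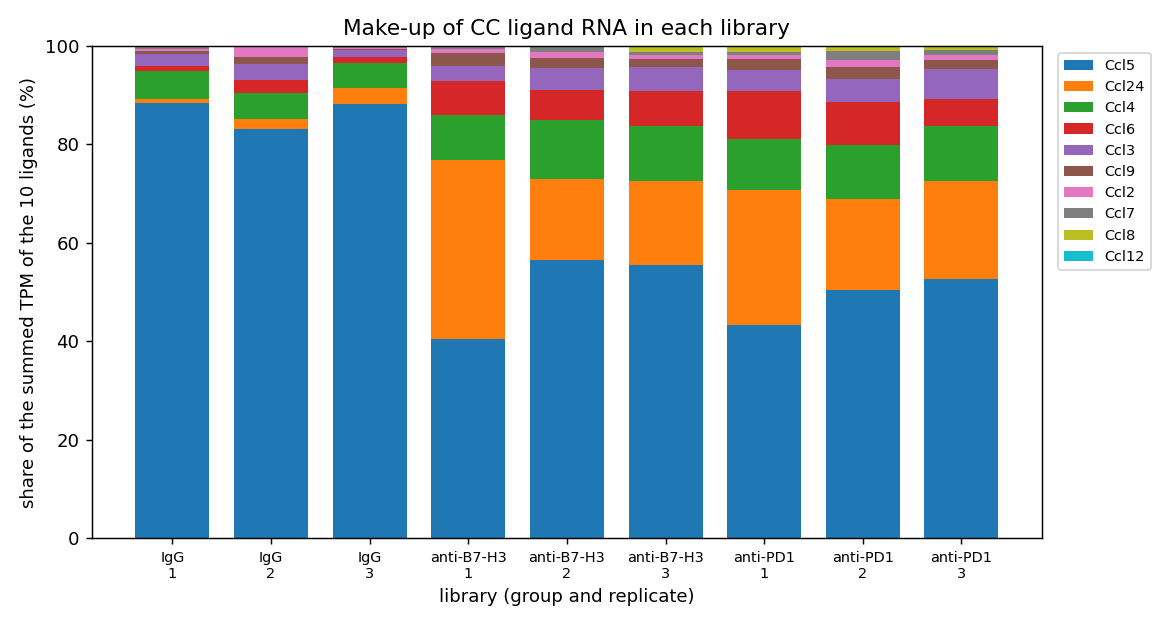
Share of each ligand in the summed TPM of the 10 ligands, in percent, as 1 stacked bar for each of the 9 libraries. Ccl5 fills 83.2% to 88.3% of the IgG bars and 40.4% to 56.5% of the antibody bars, where Ccl24 holds 16.3% to 36.5%.

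By mean TPM the order with IgG was Ccl5, Ccl4, Ccl24, Ccl3, Ccl6, Ccl2, Ccl9, Ccl7, Ccl8 and Ccl12. Single libraries set some of these places: Ccl24 lay above Ccl3 in IgG library 3 alone, and Ccl2 above Ccl9 in IgG library 2 alone. By mean share Ccl3 (2.30%) came before Ccl24 (2.05%). Only Ccl5 against Ccl4 and Ccl6 against Ccl2 were neighbours in this order whose 3 libraries did not overlap. With anti-B7-H3 the order was Ccl5, Ccl24, Ccl4, Ccl6, Ccl3, Ccl9, Ccl2, Ccl7, Ccl8 and Ccl12, and with anti-PD1 Ccl7 and Ccl2 changed places. Ccl5 against Ccl24, Ccl24 against Ccl4 and Ccl8 against Ccl12 did not overlap in either antibody group, nor did Ccl9 against Ccl2 with anti-B7-H3 or Ccl3 against Ccl9 with anti-PD1. The other neighbours overlapped.

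Macrophage markers rose alongside the ligands. Of 10 such markers, 6 (among them Cd68, C1qa, C1qb, C1qc and Apoe) rose with each antibody, and the list summed to 67.7 to 167 CPM with IgG, 715 to 1326 CPM with anti-B7-H3 and 710 to 1122 CPM with anti-PD1. In IgG library 2 the markers Mertk, Fcgr1 and Csf1r were at 0, as was Mertk in anti-PD1 library 3. In bulk RNA, a change in the number of cells of a type and a change in RNA per cell cannot be told apart. Of 8 neutrophil markers, 7 were tested and 3 rose with anti-B7-H3 and 4 under anti-PD1, and they summed to 63.7 to 99.0 CPM with IgG, 231 to 429 with anti-B7-H3 and 621 to 894 under anti-PD1, with Mmp8, Ly6g and Lcn2 at 0 in IgG library 2. The 7 monocyte markers, which include Ccr2, summed to 504 to 888, 1343 to 1638 and 1183 to 2025 CPM, with F13a1 at 0 in IgG library 2. None of the 7 passed edgeR's test, 2 had an unadjusted p under 0.05 with anti-B7-H3 and 1 under anti-PD1, and DESeq2 called 1 in each comparison. The part of these cells in the ligand changes was not tested.

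Set against the summed macrophage markers of the same library, the ligands differed in order. Ccl24 came to 11.4, 18.7 and 37.6 CPM per 100 CPM of macrophage markers with IgG, to 58.4, 44.0 and 33.9 with anti-B7-H3 and to 59.4, 41.7 and 56.6 with anti-PD1. Its anti-PD1 libraries lay above all IgG libraries, and anti-B7-H3 library 3 lay below IgG library 3. Ccl6 came to 11.7, 23.5 and 14.6 with IgG, to 10.6, 15.9 and 13.6 with anti-B7-H3 and to 20.3, 19.1 and 15.0 with anti-PD1, and Ccl9 to 3.89 to 14.4, 3.63 to 5.66 and 5.25 to 5.61, so that the groups of both overlapped. Ccl3 came to 18.2, 17.1 and 9.78 with IgG, to 2.96, 7.55 and 6.04 with anti-B7-H3 and to 5.78, 6.70 and 11.04 with anti-PD1. Ccl4 came to 29.3 to 39.7 with IgG, 9.24 to 20.3 with anti-B7-H3 and 14.0 to 19.8 under anti-PD1. Ccl5 was at 454 to 647 with IgG, at 40.2 to 93.9 with anti-B7-H3 and at 57.7 to 92.0 with anti-PD1. By this ratio Ccl4 and Ccl5 were lower in all 6 antibody libraries than in all 3 IgG libraries, Ccl6 and Ccl9 overlapped between the groups, and Ccl24 was higher in all but 1 antibody library than in any IgG library. The ratios are a description, with no test.

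**Figure D4:**
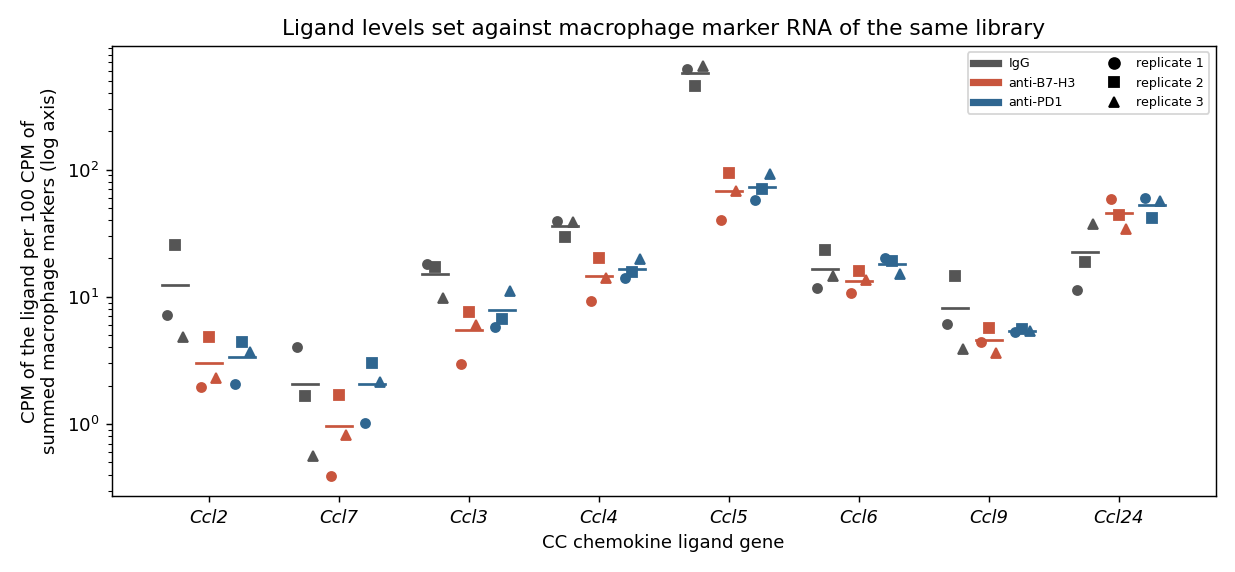
CPM of each ligand except Ccl8 and Ccl12, per 100 CPM of the 10 summed macrophage markers of the same library. The axis is a log axis, with group means as bars. Ccl4 and Ccl5 lie lower in every antibody library than in every IgG library, Ccl6 and Ccl9 overlap between groups, and Ccl24 lies at 11.4 to 37.6 with IgG and 33.9 to 59.4 with the antibodies. The markers rose with both antibodies, so a ligand that rose less than they did lies lower by this ratio.

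Ligand genes differed in how alike their patterns were over the 9 libraries. The measure was the root mean square difference of log2 CPM centred on each gene's mean, over 9654 genes with a mean of at least 5 CPM. Among the ligands, Ccl3 and Ccl4 were the closest pair (0.35), followed by Ccl6 and Ccl9 (0.43), and Ccl5 and Ccl8 were the farthest apart (2.14). The genes nearest to Ccl24 included C1qb (0.50) and C1qc (0.52). Those nearest to Ccl6 were Fcgr2b (0.33), Apoe (0.34) and Cfp (0.35), and those nearest to Ccl9 were Pilra (0.18), Ms4a6d (0.24) and Igsf6 (0.25). Nearest to Ccl3 were Csf2rb (0.25), Nfil3 (0.27) and Nr4a1 (0.29), and to Ccl4 Cd9, Rhob and Olfm1 (0.25 to 0.26). Ccl5 was nearest to Apeh (0.14), Sfn and Grhpr (0.18 each), and Ccl2 to Lair1 (0.33), Ctbp2 (0.37) and Irf5 (0.41). For the low genes Ccl7, Ccl8 and Ccl12 the nearest were Fkbp11 (0.49), Ptafr (0.54) and Il4i1 (0.37). These distances describe 9 libraries that share their groups and scaling. They are not scaled by a gene's own root mean square deviation, which was 0.46 for Ccl5 and 2.34 for Ccl8. Distances of different ligands are therefore not comparable as measures of likeness.

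Of 11 further CC ligand genes, 5 were tested and 1, Ccl17, which encodes a CCR4 ligand known from dendritic cells, rose with each antibody. Ccl17 stood at 15.3, 30.6 and 40.6 CPM with IgG, at 129, 80.8 and 95.5 CPM with anti-B7-H3 and at 94.0, 154 and 111 CPM with anti-PD1, with all IgG libraries below the others. It rose by 1.82 ± 0.35 (edgeR adjusted p = 0.0406) and 2.05 ± 0.35 (edgeR adjusted p = 0.0148). The anti-B7-H3 call was lost without any 1 of the 9 libraries but IgG library 3, and the anti-PD1 call was lost without anti-PD1 library 2 (edgeR adjusted p = 0.141 at most and 0.0665). Ccl22, the other CCR4 ligand, averaged 1.57 CPM with IgG and 2.80 CPM with anti-B7-H3 and stood at 4.88, 24.7 and 6.64 CPM with anti-PD1, where library 2 was far above the others (edgeR adjusted p = 0.86 and 0.121). DESeq2 called Ccl22 higher with anti-PD1. Ccl1, a CCR8 ligand of T cells, averaged 113, 71.7 and 138 CPM (edgeR adjusted p = 0.678 and 0.827).

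On the receptor side, 1 of 10 CC receptor genes rose with anti-PD1 and 0 with anti-B7-H3 by edgeR. With anti-B7-H3, 3 had an unadjusted p under 0.05, Ccr1 with a higher and Ccr4 and Ccr6 with a lower level (-1.01 and -1.55 on the log2 scale), and DESeq2 called Ccr1 alone. Ccr1, whose product binds Ccl3, Ccl5, Ccl6 and Ccl9, stood at 27.5, 56.1 and 17.6 CPM with IgG, at 74.9, 92.5 and 125 CPM with anti-B7-H3 and at 197, 159 and 129 CPM with anti-PD1. The 3 groups did not overlap. Its change was 1.53 ± 0.38 (edgeR adjusted p = 0.153) with anti-B7-H3 and 2.26 ± 0.39 (edgeR adjusted p = 0.0152) with anti-PD1, the latter lost without IgG library 1, anti-PD1 library 1 or anti-PD1 library 2 (edgeR adjusted p of at most 0.0647). Ccr2 averaged 222, 259 and 296 CPM and Ccr8 311, 233 and 455 CPM with IgG, anti-B7-H3 and anti-PD1, and neither passed (edgeR adjusted p of at least 0.71). Ccr4, Ccr6, Ccr7, Ccr9 and Ccr10 had edgeR adjusted p of at least 0.346 in both comparisons. Of 4 atypical receptors, Ccrl2 alone was tested, a chemerin-binding receptor of myeloid cells, and it rose by 1.71 ± 0.31 (edgeR adjusted p = 0.0302) and 2.53 ± 0.32 (edgeR adjusted p = 0.00294). Its anti-B7-H3 call was lost without any 1 of the 9 libraries but IgG library 2 (edgeR adjusted p of at most 0.117).

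Among 9 cytokines known to induce CC ligands, 1 rose with anti-B7-H3 and 2 under anti-PD1. Il1b, the gene of interleukin-1 beta, lay at 6.99 to 48.3 CPM with IgG, 298 to 509 CPM with anti-B7-H3 and 824 to 1139 CPM with anti-PD1, a rise of 3.67 ± 0.60 and 5.02 ± 0.64 (edgeR adjusted p = 0.0256 and 0.00531). Il1a rose by 5.09 ± 0.75 with anti-PD1 (edgeR adjusted p = 0.0075). Of 13 genes of receptors and factors for these cytokines, the GM-CSF receptor chains Csf2ra (2.26 ± 0.43 and 2.48 ± 0.43) and Csf2rb (1.74 ± 0.32 and 1.94 ± 0.32) rose with each antibody (edgeR adjusted p = 0.0116 to 0.0346). Of 14 genes of the NF-kB and IRF families and of NF-kB feedback, Irf5 rose with each antibody by 1.25 ± 0.19 and 1.23 ± 0.19 (edgeR adjusted p = 0.0118 and 0.00808). With anti-PD1, Nfkbid (1.91), Nfkbia (1.17) and Nfkbiz (1.74) rose too, as did Rel (1.40), which was named after its values were seen (edgeR adjusted p = 0.00599, 0.0267, 0.0287 and 0.0468). With anti-B7-H3, Il1a (3.23), Nfkbid (1.26) and Nfkbiz (1.20) did not pass (edgeR adjusted p = 0.0823, 0.0763 and 0.236). DESeq2 called all 3 higher with anti-B7-H3. Neither method called Nfkbia (0.45) or Rel (0.74) there. EdgeR called none of these genes in the direct comparison of the antibodies. Of 9 enzymes known to cleave chemokines, 8 were tested and Mmp12, the macrophage elastase gene, and Mmp13 rose with each antibody. Mmp12 lay at 13.4 to 47.0, 161 to 235 and 202 to 275 CPM, and Mmp13, with 3 counts over the IgG libraries, at 6.68 to 11.04 CPM with anti-B7-H3 and 7.81 to 14.2 under anti-PD1 (edgeR adjusted p = 0.00347 to 0.00969). Of 8 genes of receptor signalling to migration, edgeR, DESeq2 and an unadjusted p under 0.05 each called 0 with either antibody, with medians of 0.12 and -0.03.

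Over these pathway lists 8 genes were called with anti-B7-H3 and 14 under anti-PD1, and when each library was left out in turn, 2 (Mmp12 and Mmp13) and 8 were called every time. The 8 were Ccrl2, Irf5, Nfkbid, Il1a, Il1b, Csf2rb, Mmp12 and Mmp13. From 2 to 6 of the 8 anti-B7-H3 calls were lost without any 1 library, the most without anti-B7-H3 library 2 or 3. From 0 to 5 of the 14 anti-PD1 calls were lost, the most without anti-PD1 library 1 or 2. With anti-B7-H3, Irf5 lost its call without anti-B7-H3 library 2 or 3, Il1b and Csf2ra kept theirs only without IgG library 2 or 3, and Csf2rb only without anti-B7-H3 library 1. With anti-PD1, Csf2ra lost its call without anti-PD1 library 1 or 2, and Nfkbia without IgG library 1, anti-B7-H3 library 2, anti-PD1 library 1 or anti-PD1 library 3. Nfkbiz kept its call only without IgG library 1, anti-B7-H3 library 1 or anti-B7-H3 library 3, and Rel only without IgG library 2 or anti-B7-H3 library 3.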

How the data were processed

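Bulk RNA-seq of CD45+ cells was read from 1 deposited table per library, for 9 libraries. Per the labels' protocols, RNA (at least 500 ng, integrity number of at least 7.0) went through SMART-Seq v4 amplification, ribosomal RNA depletion and Nextera XT preparation, which keeps no strand. Per the submitters' processing notes the build was GRCm38 and FastQC 0.11.8 was used. The quantifier is not given in the sources used here. Per the file headers, the deposited tables hold TPM, an effective length and an estimated count for each of 58083 transcripts, and 87.3% of the lengths are multiples of 3, so they are coding lengths.

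GENCODE M21 assigned 57409 transcripts to 22136 genes and left 674 out, which held 0.236% to 0.547% of the counts. The estimated counts deposited by the authors were summed per gene and rounded. Of the 90 values of the 10 ligands, 78 were whole to within 0.001. Depth was 14487012 to 31533106 counts, amplified by PCR without molecular identifiers, so the floor of 3 counts covers counting error only. TPM gave only the shares and the order of the ligands, with no test between groups, because transcripts with an effective length under 60 held 9.67% to 20.0% of it and the ligands' effective lengths were 99.8 to 294 bases.

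One edgeR 4.0.16 fit in R 4.3.3 held all 9 libraries (TMM, filterByExpr, robust quasi-likelihood), with p-values adjusted by Benjamini and Hochberg over 13178 genes at 0.05. SE is the log2 change divided by the square root of F, and 95% intervals use the fit's degrees of freedom. On counts simulated for anti-B7-H3 against IgG (12757 genes, 200 changed), it recovered 6% of 50 genes changed 2-fold, 42% at 4-fold, 60% at 8-fold and 62% at 16-fold, with 5 false calls. The ligands, 8 pathway lists and 14 marker lists were chosen with earlier results of these data known, and some genes belong to more than 1 list. Named pathway genes come from the 4 tested genes of each list with the smallest p in either IgG comparison and from CC ligands and receptors of at least 5 CPM in a group, and the 3 nearest genes of a ligand leave out clone names. The alternatives were DESeq2 1.42.0, other scalings and filters, length-scaled TPM counts, only the 6 libraries compared, a block for the replicate number and the omission of each library. The omission of IgG library 2 with anti-PD1 library 3 was added after the data were seen. Results for some genes are not reported here.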

Additional observations from a re-analysis of the deposited data

How the results depend on the processing

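The number of ligands called with anti-B7-H3 was 4 with all libraries in 1 edgeR fit (0.85% of all tested genes, either direction). It was 5 by DESeq2 (3.25%), 2 when only the 6 libraries compared entered the fit (0.355%) and 2 with a replicate block (0.486%). Without 1 library it was 2 to 4 (0.431% to 1.03%). It was 2 without anti-B7-H3 library 2, anti-B7-H3 library 3 or anti-PD1 library 2. With anti-PD1 it was 5 (1.74%), and 8 by DESeq2 (5.44%), 4 with the 6 libraries (1.1%) and 3 with the replicate block (0.964%). Without 1 library it was 3 to 5 (0.828% to 1.88%), and 3 without any 1 of the anti-PD1 libraries. Without both IgG library 2 and anti-PD1 library 3 it was 3 and 4. Of 9 same-numbered pairs, 1 correlated above 0.1 in the deviations from the group means (r = -0.12 to 0.156). Of the libraries, 2 correlated best with their own number. With 3 libraries per group, these correlations cannot decide whether the replicate numbers pair the libraries. In the direct comparison every setting called 0 ligands.

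The sign of Ccl5 turned with the replicate block for anti-PD1 (0.022), was -0.55 with anti-B7-H3 without IgG library 2 and anti-PD1 library 3, and turned without single libraries (-0.53 to 0.24 with anti-B7-H3, -0.39 to 0.38 with anti-PD1: 0.24 and 0.38 without IgG library 3, 0.0071 without IgG library 1 and 0.032 without anti-PD1 library 1). In the direct comparison Ccl2 ran from -0.45 to 0.22 and Ccl24 from -0.63 to 0.14 without 1 library, with 0.22 without anti-PD1 library 2 for Ccl2, and 0.13, 0.14 and 0.11 without anti-B7-H3 library 2, anti-B7-H3 library 3 and anti-PD1 library 1 for Ccl24. Of the other changes of ligands under the alternatives, 512 kept their direction and their side of the threshold, 35 lost a call and 11 gained one. Ccl12 did not pass the filter of 5 CPM in 3 libraries and has no value there.

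Over all genes, 112 were called with anti-B7-H3, against 438 by DESeq2, 44 with the 6 libraries, 64 with the replicate block and 59 to 144 without 1 library. With anti-PD1, 229 were called, against 733, 136, 127 and 113 to 262. In the direct comparison 0 were called, against 18 by DESeq2 and 0 to 1 without 1 library. Shares in CPM in place of TPM were 83.0% with IgG and 40.3% with anti-PD1 for Ccl5, and 3.25% and 29.2% for Ccl24. Counts ran from 18 to 914 per library for Ccl7, 0 to 488 for Ccl8 and 4 to 136 for Ccl12, the lowest of the 10.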
